A study of Homo sapiens with 9 samples.

Results

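The genes of glycolysis and of the response to low oxygen were followed in HCT116 cells, a human colorectal carcinoma line, after silencing of H2A.X, a variant of histone H2A that is phosphorylated beside DNA double-strand breaks. Members were taken by gene name, by a rule that holds no measured value but was written with earlier results of these data known. They are the families of glucose transporters (SLC2A), hexokinases (HK), aldolases (ALDO), enolases (ENO), lactate dehydrogenases (LDH), bifunctional phosphofructokinases (PFKFB), pyruvate dehydrogenase kinases (PDK) and oxygen-sensing prolyl hydroxylases (EGLN), together with 22 single genes of the same pathways. Of the 61 genes that fit this rule in the current human gene table, 22 have a probe set named here, out of 14884 named genes in all, and the other 39 were not analysed here. The hexokinases and the lactate dehydrogenases are complete under this rule, as is a group of 5 genes, ADM, ANKRD37, BNIP3, BNIP3L and NDRG1. These 5 are called the hypoxia-induced genes below. The grouping was made here and leaves out the carbonic anhydrases, collagen prolyl hydroxylases and lactate transporters of the rule. No glucose transporter, aldolase, PFKFB, PDK, lactate transporter or collagen prolyl hydroxylase member is named here, nor are HIF1A, EGLN2, CA9, PKM, the main enolases and the phosphofructokinase genes.

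RNA from 5 shH2A.X and 4 shCTRL samples was hybridized to GeneChip Human Gene 2.0 ST arrays, 1 array per sample. The shH2A.X cells carried a lentiviral pLKO.1-puro hairpin against the H2AFX gene and the shCTRL cells a lentiviral scrambled hairpin. The methods speak of stable clones after selection and do not say whether the arrayed cells were 1 clone or a pool. The methods give puromycin at 0.8 μg/ml for 3 weeks for stable lines of both kinds, but also name collection of infected cells without it. They do not say which of these were arrayed. Both groups were grown for 72 h in DMEM with 10% serum, and infection was common to both. The sources used here give no oxygen level, no glucose concentration and no lactate measurement for these cultures. The study calls the replicates independent but mentions no separate infections for them, and part of the variation behind the p-values may be technical. The methods name 5 arrays for each group, and the labels give 4 for shCTRL. The H2A.X gene has no probe set named here, and its transcript was not analysed here.

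Glycolysis converts glucose to pyruvate in the cytosol, and lactate dehydrogenase turns pyruvate into lactate when it is not passed to mitochondria. Hypoxia-inducible factors (HIFs) are pairs of an oxygen-labile α subunit and the stable subunit ARNT. With oxygen present, EGLN enzymes hydroxylate prolines of the α subunit, which marks it for destruction by the VHL ubiquitin ligase. At low oxygen the α subunit accumulates, and the factor raises glucose transporters, most glycolytic enzymes and many genes of survival and metabolic adaptation. Colorectal carcinomas commonly take up much glucose and express both HIF1A and EPAS1.

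More members fell than rose in shH2A.X cells. The falls lay in 2 hexokinases, LDHB, EPAS1 and 5 hypoxia-induced genes, and none lay among the measured enzymes in the middle of glycolysis. Of the 22 members, 9 fell, 1 rose and 12 did not pass the test (limma, adjusted p under 0.05 over all genes). Among all 14884 genes tested, 10.7% fell and 12.2% rose by the same rule, 22.9% in all. Called changes of 1.5-fold or more were falls of 3 members (HK2, EPAS1 and ANKRD37) and 0 rises, where 1.78% of all genes fell and 2.36% rose by that much. EGLN1, which changed 1.26-fold, was the 1 member that rose, and it was also the 1 that rose when limma’s p was left unadjusted and when an equal-variance test was used. The median log2 fold change of the 22 members was −0.11, beside 0.0037 over all genes, and 17 of the 22 had a negative log2 fold change.

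**Figure D1:**
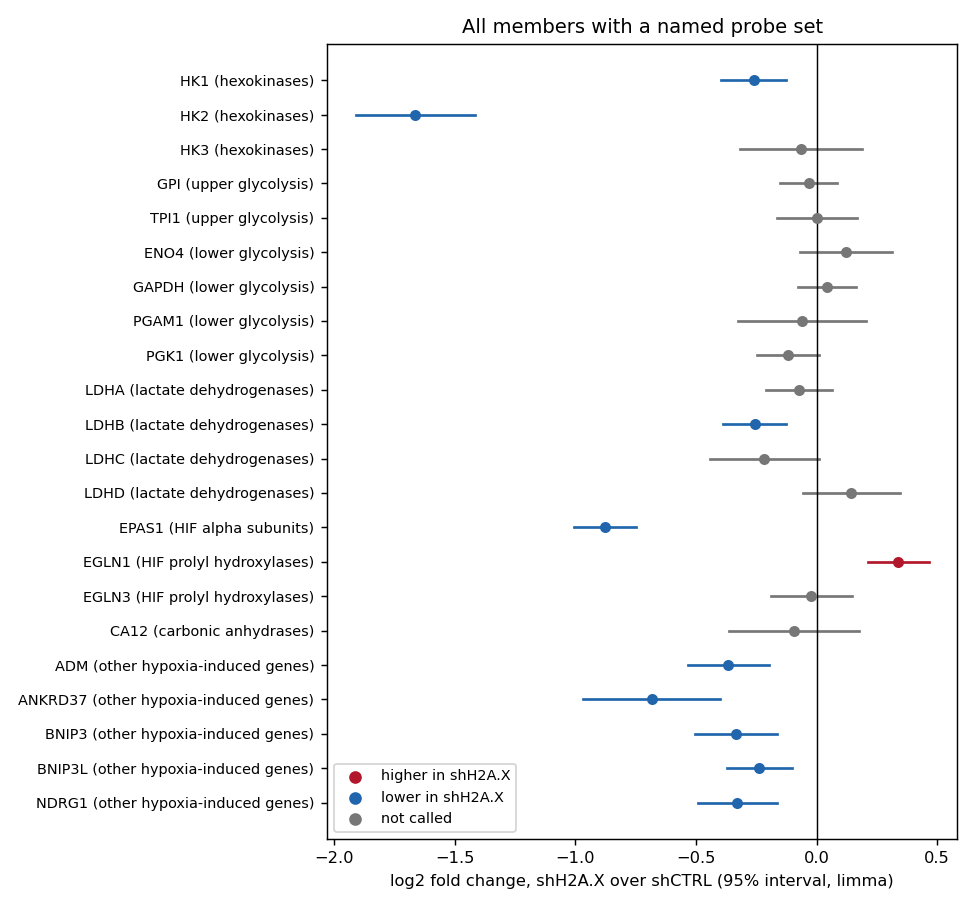
Log2 fold change of each of the 22 members, shH2A.X over shCTRL (x axis), with its 95% interval from limma, members listed by role. HK2, EPAS1 and ANKRD37 lie farthest to the left, EGLN1 is the 1 member whose interval lies wholly to the right of 0, and the intervals of the enzymes from GPI to PGK1 all hold 0.

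The largest change of any measured member lay at the first step of glycolysis. HK2, the inducible hexokinase of many tumours, which binds to mitochondria and traps glucose in the cell as glucose 6-phosphate, had log2 values of 6.02, 5.82, 6.03, 5.49 and 6.08 on the shH2A.X arrays, against 7.41, 7.63, 7.58 and 7.59 on the shCTRL arrays. Every shH2A.X array lay below every shCTRL array, and the nearest arrays of the groups were 1.34 apart. The mean was 5.89 ± 0.24 (SD, n = 5) in shH2A.X cells and 7.55 ± 0.10 (SD, n = 4) in shCTRL cells. HK2 was 3.17-fold lower (limma adjusted p = 1.09e-06, log2 fold change −1.66 with SE 0.11). HK1, the constitutive hexokinase of most tissues, had 7.45, 7.69, 7.58, 7.57 and 7.66 in shH2A.X cells, against 7.85, 7.82, 7.90 and 7.84 in shCTRL cells. These groups also did not overlap, but the step between them was small, 1.20-fold (limma adjusted p = 0.00979, log2 fold change −0.26 with SE 0.06). HK3, a hexokinase of blood cells, was dim, with both group means below the median of every array, at 4.37 ± 0.19 (SD, n = 5) in shH2A.X cells and 4.43 ± 0.21 (SD, n = 4) in shCTRL cells. Its log2 fold change of −0.06 (95% interval −0.32 to 0.19) did not pass the test.

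Beyond the hexokinases, no measured enzyme from glucose 6-phosphate isomerase to enolase passed the test. Of the 16 genes of these steps in the rule, 6 were measured. Of these, 0 rose and 0 fell in limma, 0 had an unadjusted p under 0.05, and 0 were called by the equal-variance test. GPI, the isomerase that makes fructose 6-phosphate, had 11.18, 11.21, 11.29, 11.19 and 11.16 in shH2A.X cells and 11.20, 11.26, 11.27 and 11.21 in shCTRL cells, so that the groups overlapped throughout. Its log2 fold change was −0.03, with a 95% interval of −0.15 to 0.08 that leaves out a 1.5-fold change in either direction. GAPDH, which oxidizes glyceraldehyde 3-phosphate and which the study used as an internal control, had 7.02, 7.01, 7.01, 7.08 and 7.12 in shH2A.X cells and 6.96, 7.05, 7.05 and 6.96 in shCTRL cells, again with overlap. The 95% interval of its log2 fold change ran from −0.08 to 0.16. The GPI probe set was brighter than 98.9% of all probe sets, that of GAPDH than 82.2% and that of TPI1 than 74.0%. How faithfully each probe set follows its transcript was not tested, so an unchanged reading may miss a change.

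The other 4 enzymes of these steps had log2 fold changes between −0.12 and 0.12. TPI1, triose phosphate isomerase, had a log2 fold change of 0.0024 (95% interval −0.16 to 0.17). PGAM1, a phosphoglycerate mutase, had the widest spread of these, at 7.80 to 8.48 in shH2A.X cells and 8.0 to 8.35 in shCTRL cells. Its log2 fold change was −0.06 (95% interval −0.33 to 0.20). Whether its probe set reads PGAM1 itself or a related sequence was not tested. ENO4, an enolase-like gene known for its part in sperm, lay below the median of every array and had a log2 fold change of 0.12 (95% interval −0.07 to 0.31). PGK1, phosphoglycerate kinase, a standard HIF target, had the smallest p of the 6. Its shH2A.X arrays read 8.28, 8.27, 8.16, 8.14 and 8.27 and its shCTRL arrays 8.30, 8.32, 8.42 and 8.32. These do not overlap, but they are 0.03 apart at the nearest arrays, and the change of −0.12 on the log2 scale did not pass (limma adjusted p = 0.187, SE 0.06).

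At the end of the pathway 1 of the 4 lactate dehydrogenase genes fell and none rose, with 0 higher also at an unadjusted p under 0.05 in limma and by the equal-variance test. LDHB, the heart-type subunit, had 9.77, 9.71, 9.69, 9.72 and 9.80 in shH2A.X cells, against 10.00, 9.93, 10.11 and 9.93 in shCTRL cells. All shH2A.X arrays were lower, with a 1.19-fold fall (limma adjusted p = 0.00889, log2 fold change −0.26 with SE 0.06). LDHA, the muscle-type subunit and a HIF target, had 6.78, 6.84, 6.89, 6.78 and 6.98 in shH2A.X cells and 6.86, 6.91, 6.93 and 7.0 in shCTRL cells, which overlap, and its log2 fold change of −0.07 had a 95% interval of −0.21 to 0.07. LDHC, the subunit of testis and sperm, was among the dimmest members, with means of 3.06 ± 0.12 (SD, n = 5) in shH2A.X cells and 3.28 ± 0.22 (SD, n = 4) in shCTRL cells, and did not pass (adjusted p = 0.17 from limma). The adjusted p of LDHC was 0.0252 without shCTRL replicate 4. LDHD, a mitochondrial dehydrogenase of D-lactate, had a log2 fold change of 0.14 (95% interval −0.06 to 0.35). The LDHA probe set was brighter than 80.9% of all probe sets and that of LDHB than 96.9%. How well they follow their transcripts was not tested.

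**Figure D2:**
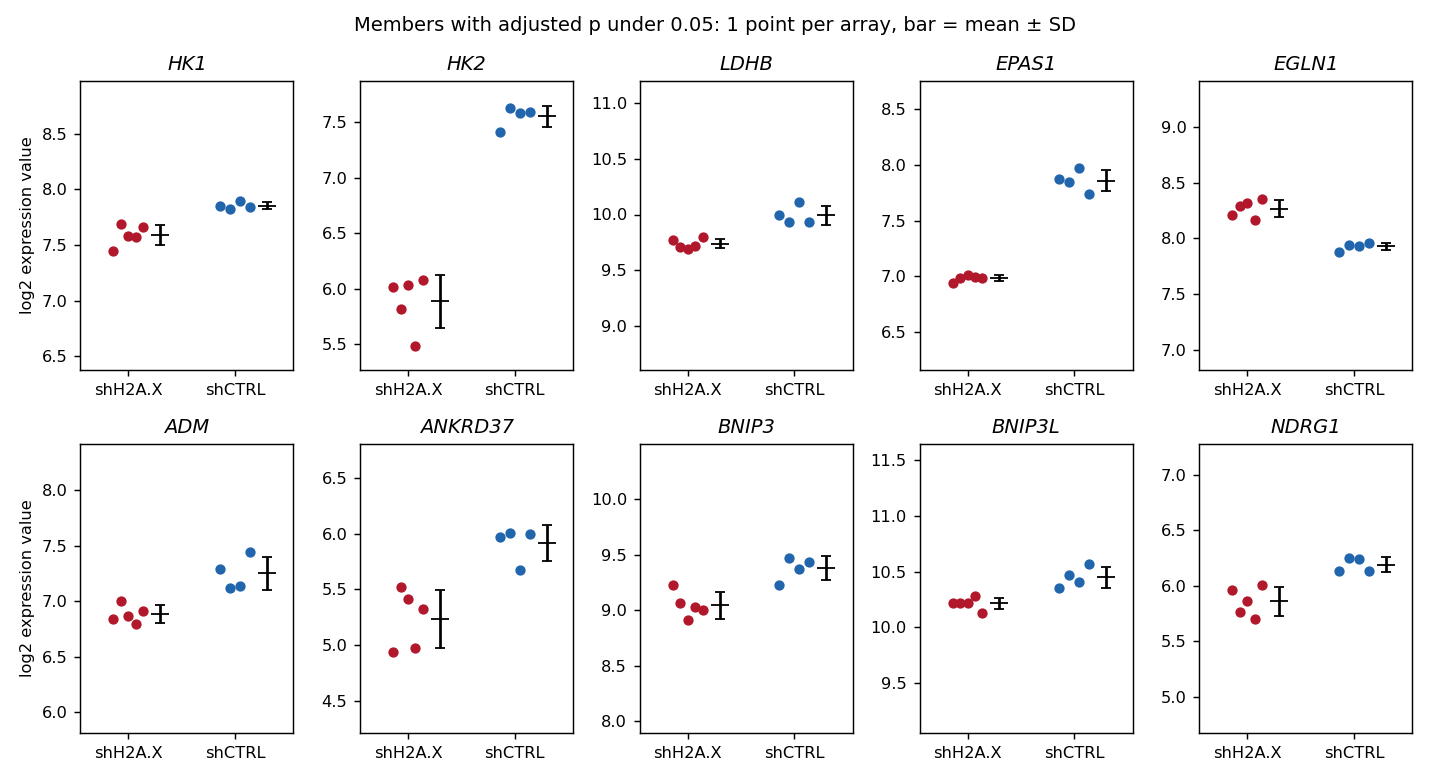
Log2 expression values (y axis, each panel spanning the same number of log2 units) of the 10 members that passed the test, with 1 point per array, shH2A.X in red on the left and shCTRL in blue on the right, and bars for the mean ± SD. Of the 10 panels only that of BNIP3 shows a shH2A.X array level with a shCTRL array, at 9.23, and HK2 and EPAS1 show the widest gaps.

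Of the 3 measured HIF α subunit and prolyl hydroxylase genes, EPAS1 fell, EGLN1 rose and EGLN3 was not called, and HIF1A and EGLN2 were not analysed here. EPAS1, which encodes HIF-2α, had log2 values of 6.94, 6.98, 7.01, 6.99 and 6.98 on the shH2A.X arrays, against 7.87, 7.85, 7.97 and 7.74 on the shCTRL arrays. The shH2A.X arrays lay close together, and the highest of them was 0.73 below the lowest shCTRL array. EPAS1 was 1.84-fold lower (limma adjusted p = 1.07e-06, log2 fold change −0.88 with SE 0.06). EGLN1, also called PHD2, the main prolyl hydroxylase acting on HIF α subunits when oxygen is present, had 8.21, 8.29, 8.32, 8.17 and 8.35 in shH2A.X cells, against 7.88, 7.94, 7.93 and 7.96 in shCTRL cells. All 5 shH2A.X arrays were above all 4 shCTRL arrays. EGLN1 rose 1.26-fold (limma adjusted p = 0.00132, log2 fold change 0.34 with SE 0.06). EGLN3, or PHD3, a hydroxylase that HIF itself induces, read 4.93, 4.90, 5.07, 5.05 and 4.98 in shH2A.X cells and 5.18, 5.07, 4.89 and 4.88 in shCTRL cells, with a log2 fold change of −0.02 (95% interval −0.19 to 0.15). These are transcript levels, and HIF protein and hydroxylase activity were not analysed here.

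The 5 genes grouped here as hypoxia-induced all fell, each by less than HK2, while CA12, kept apart from them, was not called. ANKRD37, an ankyrin-repeat protein and a sensitive HIF target, had 4.94, 5.52, 5.41, 4.97 and 5.32 in shH2A.X cells, against 5.97, 6.01, 5.67 and 6.0 in shCTRL cells. It did not overlap between groups, although it had the largest spread of these genes in shH2A.X cells, and was 1.61-fold lower (limma adjusted p = 0.00254, log2 fold change −0.68 with SE 0.13). ADM, the vasodilator peptide adrenomedullin, had 6.84, 7.0, 6.87, 6.79 and 6.91 in shH2A.X cells, against 7.29, 7.12, 7.14 and 7.44 in shCTRL cells. The groups stood 0.12 apart, and ADM was 1.29-fold lower (limma adjusted p = 0.00494, log2 fold change −0.37 with SE 0.08).

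NDRG1, a stress-induced gene linked to growth arrest and differentiation in the colon, had 5.96, 5.76, 5.86, 5.70 and 6.01 in shH2A.X cells, against 6.13, 6.25, 6.24 and 6.13 in shCTRL cells, a 1.26-fold fall without overlap (limma adjusted p = 0.00793, log2 fold change −0.33 with SE 0.08). BNIP3 and BNIP3L are outer mitochondrial membrane receptors that direct mitochondria to autophagy. BNIP3 had 9.23, 9.06, 8.91, 9.03 and 9.00 in shH2A.X cells, against 9.23, 9.47, 9.37 and 9.43 in shCTRL cells, a 1.26-fold fall (limma adjusted p = 0.00844, log2 fold change −0.33 with SE 0.08). It was the 1 called member whose groups met, at shH2A.X replicate 1 and shCTRL replicate 1. BNIP3L had 10.22, 10.22, 10.22, 10.28 and 10.13 in shH2A.X cells, against 10.35, 10.47, 10.41 and 10.57 in shCTRL cells, a 1.18-fold fall without overlap (limma adjusted p = 0.0163, log2 fold change −0.24 with SE 0.06). With the replicate number as a block, the adjusted p was 0.0636 for BNIP3 and 0.0773 for BNIP3L, and for BNIP3L it was 0.0514 when adjusted over all probe sets.

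CA12, a membrane carbonic anhydrase that responds to hypoxia in several carcinomas, was not called. It had 6.35, 5.76, 6.23, 6.02 and 6.28 in shH2A.X cells and 6.29, 6.18, 6.41 and 6.01 in shCTRL cells. The log2 fold change of −0.10 had a 95% interval of −0.36 to 0.17, which includes 0 and also a fall of the size seen for BNIP3. In the whole set, 9 members had every shH2A.X array below every shCTRL array and 1 had every array above, where 10.7% and 12.1% of all genes did so. The 9 are PGK1 and the called members other than BNIP3 and EGLN1.

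HIFs bind a short core sequence, ACGTG or GCGTG, and the start-site regions of the members were read for the first, ACGTG on either strand (CACGT on the printed strand). CACGTG, which holds the core on both strands, is also the E-box read by MYC and by the glucose-responsive MLX factors. Sequences come from RefSeq on GRCh38.p14, and only the 250 bases before each start were searched. A sequence was matched for 19 of the 22 members, and 11 of these 19 held ACGTG before at least 1 start, against 21.7% of 27305 genes in the same table. Of the members that fell, 3 of 7 matched genes held it, as did EGLN1, which rose, and 7 of 11 matched members that did not pass the test. With GCGTG counted as well, 6 of the 7 that fell, 1 of 1 that rose and 8 of the 11 not called held a core, 15 of 19 in all, against 47.4% of all genes. CACGTG was found in 5 of the 19 members and in 7.73% of all genes. The sequences below are those of the changed members that hold ACGTG, HK2 before both of its starts, ANKRD37, BNIP3 and EGLN1. They are set beside LDHA and PGK1, which carry the same letters and did not pass the test. HK1, LDHB, EPAS1 and ADM also fell, and they held no ACGTG before any of their starts. Capitals mark ACGTG, read on either strand, and GCGTG is left in lower case.
HK2, chr2:74833877-74834126, plus strand: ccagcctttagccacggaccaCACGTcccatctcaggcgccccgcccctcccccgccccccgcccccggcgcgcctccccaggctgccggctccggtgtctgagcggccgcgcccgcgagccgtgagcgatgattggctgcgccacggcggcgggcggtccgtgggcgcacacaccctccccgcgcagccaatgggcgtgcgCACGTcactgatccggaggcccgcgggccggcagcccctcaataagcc
HK2, chr2:74834920-74835169, plus strand: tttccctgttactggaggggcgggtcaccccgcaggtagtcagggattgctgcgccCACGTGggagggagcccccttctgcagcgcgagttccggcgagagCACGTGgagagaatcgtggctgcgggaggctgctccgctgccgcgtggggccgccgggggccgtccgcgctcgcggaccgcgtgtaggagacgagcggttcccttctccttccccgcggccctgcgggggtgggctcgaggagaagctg
ANKRD37, chr4:185396591-185396840, plus strand: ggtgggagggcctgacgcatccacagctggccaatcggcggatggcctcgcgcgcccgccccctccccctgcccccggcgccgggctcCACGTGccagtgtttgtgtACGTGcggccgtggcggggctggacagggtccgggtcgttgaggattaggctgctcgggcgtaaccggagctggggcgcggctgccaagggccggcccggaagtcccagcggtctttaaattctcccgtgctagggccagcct
BNIP3, chr10:131981924-131982173, minus strand: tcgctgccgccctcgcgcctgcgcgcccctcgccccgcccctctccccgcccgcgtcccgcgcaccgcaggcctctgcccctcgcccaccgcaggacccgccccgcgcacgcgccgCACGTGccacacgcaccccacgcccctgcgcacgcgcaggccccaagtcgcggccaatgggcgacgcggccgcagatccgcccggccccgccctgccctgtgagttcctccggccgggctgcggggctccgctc
EGLN1, chr1:231422288-231422537, minus strand: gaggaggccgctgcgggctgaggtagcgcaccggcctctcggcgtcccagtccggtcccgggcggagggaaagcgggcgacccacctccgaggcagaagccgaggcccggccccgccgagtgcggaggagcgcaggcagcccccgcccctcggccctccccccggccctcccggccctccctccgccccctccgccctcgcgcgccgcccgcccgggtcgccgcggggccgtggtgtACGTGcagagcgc
LDHA, chr11:18394313-18394562, plus strand: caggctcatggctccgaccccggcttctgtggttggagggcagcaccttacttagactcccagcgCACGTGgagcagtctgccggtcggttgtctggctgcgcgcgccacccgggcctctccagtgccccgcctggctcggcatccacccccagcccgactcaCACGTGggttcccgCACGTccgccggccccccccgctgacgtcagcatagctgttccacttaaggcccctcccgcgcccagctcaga
PGK1, chrX:78103998-78104247, plus strand: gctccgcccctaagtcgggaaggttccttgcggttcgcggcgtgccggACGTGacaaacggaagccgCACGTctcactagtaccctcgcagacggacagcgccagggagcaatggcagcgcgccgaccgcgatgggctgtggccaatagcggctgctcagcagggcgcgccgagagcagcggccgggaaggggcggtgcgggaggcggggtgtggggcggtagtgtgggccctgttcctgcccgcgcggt
The upstream HK2 region holds 2 single cores and the downstream one 2 CACGTG palindromes. ANKRD37 has 1 palindrome and 1 single core a few bases on, BNIP3 has 1 palindrome, and EGLN1 has 1 core close to its start. LDHA holds 2 palindromes and 1 core, and PGK1 2 cores, so that the letters stood in front of members with a large fall, with a rise and with no called change. A match is a description of the letters and no evidence that a factor was bound.

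Whether related members changed unequally was tested on the difference of their log2 values within each array. Of 18 pairs listed, 4 had both genes named here, and 2 of these passed a two-sided exact permutation test that ran through all 126 ways to divide the 9 arrays, with p-values adjusted over the 4 pairs. The HK1 minus HK2 difference was 1.71 ± 0.26 (SD, n = 5) in shH2A.X cells and 0.30 ± 0.11 (SD, n = 4) in shCTRL cells, so that HK2 fell by 1.40 more than HK1 on the log2 scale (exact p = 0.00794, the smallest possible, adjusted p = 0.0159). The EGLN1 minus EGLN3 difference was 3.28 ± 0.11 in shH2A.X cells and 2.92 ± 0.18 in shCTRL cells, 0.36 higher (exact p = 0.00794, adjusted p = 0.0159). The LDHA minus LDHB difference was −2.89 ± 0.09 in shH2A.X cells and −3.07 ± 0.11 in shCTRL cells, 0.18 higher, which did not pass after adjustment (exact p = 0.0397, adjusted p = 0.0529). It passed with quantile normalization, at an adjusted p of 0.0423 by the exact test, and without shCTRL replicate 4, at 0.0476. BNIP3 and BNIP3L differed by 0.10 in their changes (exact p = 0.214, adjusted p = 0.214), with an SD of 0.12 between shH2A.X arrays and 0.06 between shCTRL arrays. Without shH2A.X replicate 1 their changes differed by 0.14 (exact test, adjusted p = 0.0381). Without any 1 of shH2A.X replicates 2 to 5, the HK1 with HK2 and EGLN1 with EGLN3 pairs stood at an adjusted p of 0.0571 in the exact test, the least that 4 arrays against 4 allow for 2 of 4 pairs. Differences between probe sets on 1 array do not give the ratio of the transcripts.

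**Figure D3:**
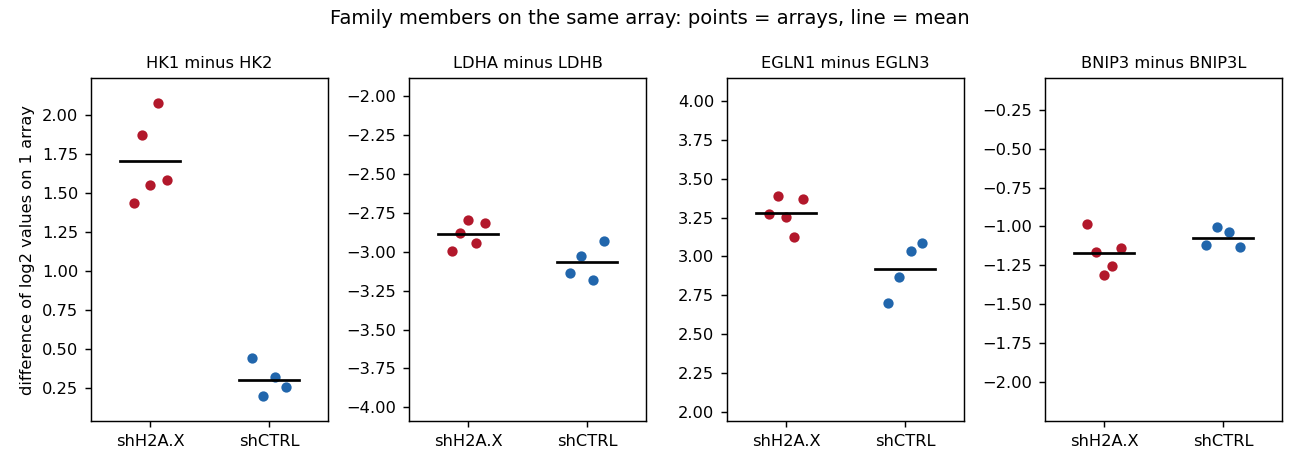
Difference of the log2 values of 2 related genes on the same array (y axis, log2 units, each panel spanning the same range), 1 point per array and a line for the mean, shH2A.X in red on the left and shCTRL in blue on the right. The HK1 minus HK2 points of shH2A.X cells, 1.43 to 2.08, lie above those of shCTRL cells, 0.19 to 0.44, and the BNIP3 minus BNIP3L points overlap.

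Other genes of the same pathways were counted from textbook lists, and the sizes of their changes are log2 fold changes. Each count stands against the 12.2% of all genes that rose and the 10.7% that fell. Of 49 further HIF targets listed, 35 were measured. Their median log2 fold change was −0.03, and 9 fell, 4 rose and 22 were not called. The falls were modest. MXI1, a MAX partner that opposes MYC, had 6.55, 6.78, 6.87, 6.96 and 6.87 in shH2A.X cells, against 7.33, 7.36, 7.29 and 7.36 in shCTRL cells, without overlap (limma adjusted p = 0.00059, log2 fold change −0.53 with SE 0.08). The other 8 that fell were ANGPTL4, AK3, DDIT4, KDM3A, STC2, KDM4C, CXCR4 and MIR210HG, with log2 fold changes between −0.51 and −0.33. They were named after their values were seen. ANGPTL4 did not pass the equal-variance test (adjusted p = 0.0733). DDIT4 restrains mTOR signalling under hypoxia, KDM3A removes methyl groups from histone H3, and MIR210HG is the host transcript of the hypoxia microRNA miR-210.

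Targets that rose were fewer and included the largest change of any gene in the lists. EDN1, the vasoconstrictor endothelin-1, averaged 7.85 ± 0.10 (SD, n = 5) in shH2A.X cells and 4.48 ± 0.17 (SD, n = 4) in shCTRL cells. Its log2 fold change of 3.37 (SE 0.09) is uncertain in size, since the shCTRL mean lay below the median of every array. LOXL2, a collagen cross-linking oxidase, rose by 1.31 (SE 0.07). The other two risers, TMEM45A and HMOX1, had log2 fold changes of 0.38 and 0.37. VEGFA, an angiogenic factor and a classic HIF target, did not pass (limma adjusted p = 0.0727, log2 fold change −0.23 with SE 0.09), and neither did ERO1A, an endoplasmic reticulum oxidase, at −0.05 (adjusted p = 0.668).

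Of 8 measured HIF partners and modifiers, 3 rose and none fell, with 0 lower also at an unadjusted p under 0.05 in limma and in the equal-variance test. By the equal-variance test 2 rose. NPAS2, a circadian relative of the HIF α subunits, had 8.18, 8.28, 8.24, 8.15 and 8.29 in shH2A.X cells, against 7.38, 7.54, 7.35 and 7.62 in shCTRL cells, 1.68-fold higher without overlap (limma adjusted p = 1.57e-05, log2 fold change 0.75 with SE 0.07). The coactivators CREBBP and EP300 rose by 0.43 (SE 0.06) and 0.24 (SE 0.08). The groups of EP300 overlapped, and it did not pass the equal-variance test (adjusted p = 0.0673). ARNT, the partner of both α subunits, had a log2 fold change of 0.05 (adjusted p = 0.584).

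Among 16 measured genes of glucose sensing, 3 fell, 1 rose and 12 did not pass. ARRDC4, an arrestin-like gene that MLX factors induce when glucose phosphates accumulate and that lowers glucose uptake, had 5.72, 5.77, 5.75, 5.51 and 5.63 in shH2A.X cells, against 7.46, 7.63, 7.25 and 7.67 in shCTRL cells. The groups were far apart, and the fall was 3.55-fold, the largest in any list and close in size to that of HK2 (limma adjusted p = 9.70e-08, log2 fold change −1.83 with SE 0.09). TXNIP, a relative of ARRDC4 that MLX factors also induce, did not pass, with a log2 fold change of 0.53 (SE 0.22, limma adjusted p = 0.12) and overlapping groups, at means of 4.60 in shH2A.X cells and 4.08 in shCTRL cells. The shCTRL mean of TXNIP lay below the median of every array, so the size of its change is uncertain. TXNIP was named after its values were seen. The stress-induced mTOR regulator SESN3 fell by 0.86 (SE 0.10), and RHEB, which activates mTOR, rose by 0.42 (SE 0.07).

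On the branch from pyruvate to the mitochondrion, 4 of 11 measured genes fell and none rose, with 0 higher also at an unadjusted p under 0.05 in limma and in the equal-variance test. By the equal-variance test 3 fell. PDP1, the phosphatase that switches pyruvate dehydrogenase on, had 7.27, 7.24, 7.34, 7.32 and 7.38 in shH2A.X cells, against 7.87, 7.87, 7.83 and 7.88 in shCTRL cells, with no overlap (limma adjusted p = 2.36e-05, log2 fold change −0.55 with SE 0.05). LIAS, which makes the lipoate cofactor, fell by 0.47 (SE 0.06), and MPC1, a subunit of the mitochondrial pyruvate carrier, fell by 0.40 (SE 0.11), with 1 shH2A.X array at 7.67 inside the shCTRL range. MPC1 did not pass the equal-variance test (adjusted p = 0.0644). The kinases that oppose PDP1, the PDK genes, have no probe set named here. In the tricarboxylic acid cycle 3 of 9 genes fell, led by IDH3B at −0.28 (SE 0.07), and OGDH rose by 0.20 (SE 0.06).

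Branches that leave glycolysis moved in both directions. Of 12 pentose phosphate genes, 3 rose and 3 fell. TKT, transketolase, had 11.32, 11.33, 11.37, 11.26 and 11.33 in shH2A.X cells, against 10.76, 10.84, 10.87 and 10.90 in shCTRL cells (limma adjusted p = 8.40e-05, log2 fold change 0.48 with SE 0.06), whereas RPIA and TALDO1 fell by 0.41 (SE 0.09) and 0.34 (SE 0.10). TALDO1 did not pass the equal-variance test (adjusted p = 0.0753). GFPT1, which draws fructose 6-phosphate into hexosamine synthesis, rose by 0.53 (SE 0.05), and GPD1L, a glycerol 3-phosphate dehydrogenase, fell by 0.53 (SE 0.08), among 4 that rose and 2 that fell of 15 side-branch genes. PCK2, the mitochondrial phosphoenolpyruvate carboxykinase, was the 1 that fell of 4 gluconeogenic genes, by 0.69 (SE 0.13), and none of them rose (1 at an unadjusted p under 0.05 from limma, 0 in the equal-variance test).

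In glycogen metabolism UGP2 rose by 0.28 (SE 0.07) and PGM2 fell by 0.28 (SE 0.05) among 8 genes. BSG, the chaperone of lactate transporters, rose by 0.28 (SE 0.05), 1 of 2 transport genes measured. Of 10 other carbonic anhydrase and pH genes, 0 rose and 0 fell by limma and by the equal-variance test, with 1 lower and 0 higher at an unadjusted p under 0.05. Of 13 relatives of NDRG1, BNIP3 and the collagen hydroxylases, 3 rose, all of them collagen hydroxylase genes or their partners (P3H1 by 0.55, SE 0.08, CRTAP by 0.32, SE 0.05, and P3H4 by 0.25, SE 0.07). The relatives NDRG2, NDRG3 and NDRG4 had log2 fold changes of 0.03, 0.10 and −0.02, none past the limma test. By the equal-variance test 4 of the 13 rose, NDRG3 among them (adjusted p = 0.0174). Over all the lists together, 21 of 143 genes rose and 26 fell, with a median log2 fold change of −0.0026, beside 12.2% higher and 10.7% lower among all genes.

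**Figure D4:**
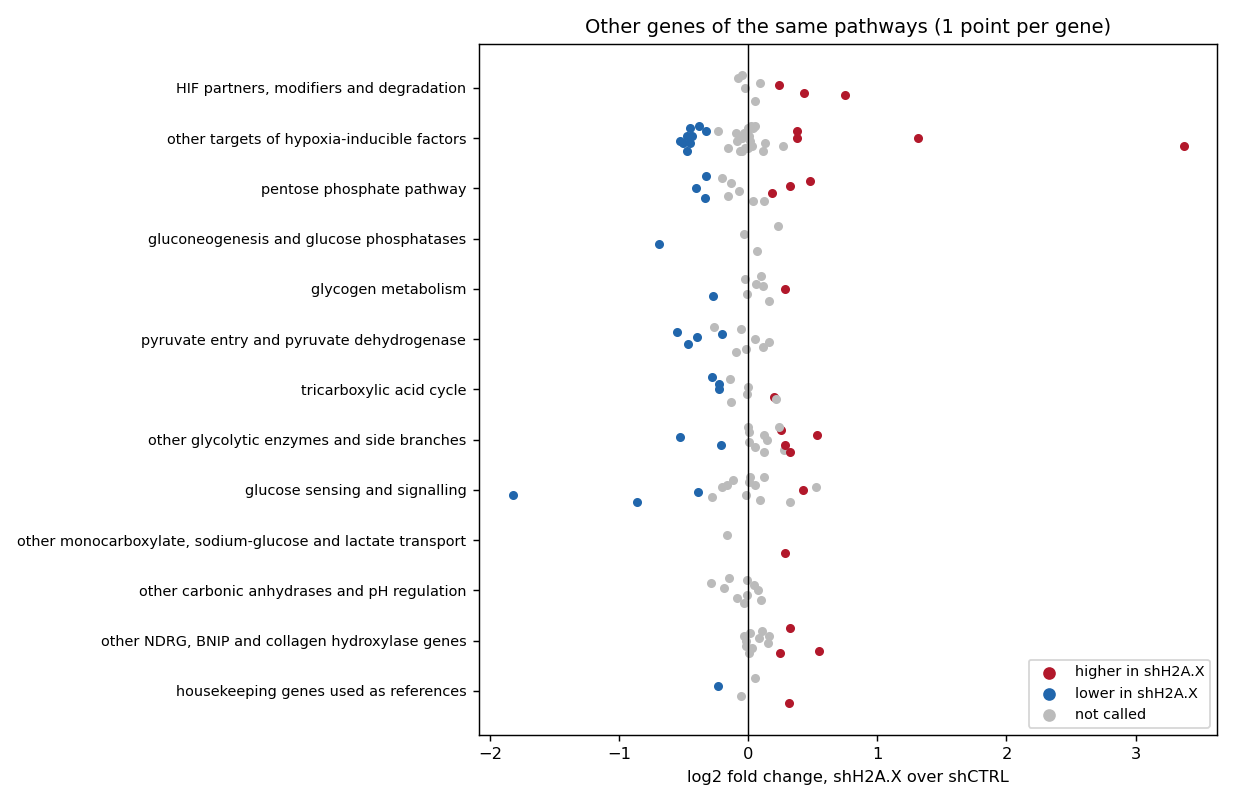
Log2 fold change, shH2A.X over shCTRL (x axis), of every measured gene of 13 lists (rows), 1 point per gene, red for genes that rose, blue for genes that fell and grey for genes that did not pass the test. The red point at 3.37 is EDN1 and the blue point at −1.83 is ARRDC4, and the HIF target row holds a group of blue points between −0.53 and −0.33.

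Levels were also seen against the scale and make-up of the arrays. Array medians lay between 4.54 and 4.577, arrays of 1 group correlated at 0.9938 to 0.9953 across genes and arrays of different groups at 0.9851 to 0.986. Of 4 genes used as references in expression work, TBP and PPIA had log2 fold changes of 0.05 and −0.05. B2M rose by 0.32 (SE 0.06), and HPRT1 fell by 0.24 (SE 0.07), a size like that of HK1, LDHB and BNIP3L. The study used HPRT1 and GAPDH, often together with RPLP0, to normalize part of its RT–PCR. Its RT–PCR check of the array genes was normalized to a ribosomal RNA. Of 10 epithelial markers 9 were measured, of which KRT19 and KRT20 rose and EPCAM and CLDN7 fell, with a summed log2 level of 12.47 to 12.6 in shH2A.X cells and 12.71 to 12.77 in shCTRL cells. Of 6 fibroblast markers, DCN and LUM were measured, both below the median of every array, with a summed log2 level of 3.81 to 4.151 in shH2A.X cells and 4.037 to 4.244 in shCTRL cells. Of 7 leukocyte and endothelial markers 5 were measured, and their summed log2 level was 7.863 to 8.038 in shH2A.X cells and 7.225 to 7.35 in shCTRL cells, with CD68 as the 1 that rose, while VWF, PECAM1 and CD14 lay below every array median. Their part in the member changes was not tested. In RNA from whole cultures, fewer cells that express a gene and less of its RNA per cell cannot be told apart.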

How the data were processed

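RNA of 5 shH2A.X and 4 shCTRL HCT116 cultures was measured on Affymetrix GeneChip Human Gene 2.0 ST arrays. The authors made CHP files with Affymetrix Expression Console and normalized CEL files in Partek 6.6. Per the values and the methods, the deposited table gives log2 signals of 53617 probe sets after normalization by the authors. Neither the normalization method nor any background correction is given in the sources used here, and the table carries no detection calls. Precision is limited by the number of arrays, with a median pooled SD of 0.127 on the log2 scale.

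Of the probe sets, 16098 carry 1 gene symbol in the platform annotation, brought up to date with RefSeq (GRCh38.p14) by identifier, and 37519 are unnamed here. Where a gene had several, the brightest on average stood for it. Groups were compared with limma (version 3.58.1, under R 4.3.3) by lmFit followed by eBayes, without a filter, and p-values of all 14884 genes were adjusted by Benjamini-Hochberg with a threshold of 0.05. Family pairs were tested by exact permutation. The limma fit was tested on simulated arrays, and the permutation test only on values with a known p and on random values. Groups and replicate numbers came from the sample labels.

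The members and lists were chosen with earlier results of these data known. All members are named. By the rule for named genes, array values are given for members changed at least 1.3-fold and for EPAS1 and GAPDH, and at most 3 genes per list are named. Array values of the other members, and further list genes, were added after their values were seen. Alternatives tried were median centring and quantile normalization of the arrays, removal of dim probe sets, the methods' t-test, limma with array weights or with a trended robust prior, a block for the replicate number, averaging the probe sets of a gene, adjustment over all probe sets, and leaving out each array.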

Additional observations from a re-analysis of the deposited data

Results flagged for a closer look

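In 2 of 44 groups of member values, 1 array stood apart from the rest of its group by Dixon's criterion, which chance alone meets in about 1 of 20 groups. Both were shCTRL replicate 3. For ANKRD37 it read 5.67, against 5.97 to 6.01 on the other shCTRL arrays, which brings it closer to the shH2A.X arrays. For PGK1 it read 8.42, against 8.30 to 8.32, which takes it farther from them.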

How the results depend on the processing

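Under 18 alternatives the 10 called members kept their direction, and the calls of EGLN1, HK1, HK2, LDHB, EPAS1, ADM, ANKRD37 and NDRG1 passed in all of them. With the replicate number as a block, 1 member rose and 7 fell, and BNIP3 (−0.32, adjusted p = 0.0636) and BNIP3L (−0.22, adjusted p = 0.0773) were lost. The labels do not say whether same-numbered arrays share a batch. Across genes, same-numbered arrays deviated from their group means with correlations of −0.0855 to 0.024. Such correlations cannot exclude a pairing that affects some genes. BNIP3L was also lost when all probe sets were the unit of adjustment (0.0514). Without 1 array each, 1 member rose, 9 to 10 fell, 3 fell at least 1.5-fold and 0 rose at least 1.5-fold. The pathway genes numbered 16 to 19 higher and 21 to 27 lower, and the pairs that passed 0 to 3. With 4 arrays a group the exact test cannot pass after adjustment over 4 pairs unless at least 3 of them reach its smallest p, and the pairs of HK1 with HK2 and EGLN1 with EGLN3 then stood at 0.0571 by the exact test. Members that did not pass turned sign at GPI (0.02506 with quantile normalization), TPI1 (−0.04 with the replicate block, −0.0436 to 0.03759 over all alternatives), and, without 1 array, at EGLN3 (−0.06523 to 0.03804), HK3 (−0.1331 to 0.02857) and PGAM1 (−0.1448 to 0.02543). A filter on dim probe sets removed 3 members, HK3, ENO4 and LDHC. Dim genes have no known background limit.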
